A study of Homo sapiens with 9 samples.

Results

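The HOX genes of the 4 clusters were followed in Huh-7 cells that lacked vtRNA1-1 or vtRNA1-2. The members were a given list of 38 HOX gene symbols, matched to their Ensembl identifiers in the deposited count table, which held 60664 gene identifiers. No measured value entered the choice. HOXA contributed 10 members, HOXB 10, HOXC 9 and HOXD 9.

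HOX genes encode homeodomain transcription factors that set positional identity along the body axis of the embryo. In each cluster the genes stand in a fixed order, and genes of low paralog number act in anterior regions and genes of high paralog number in posterior regions. The clusters are textbook targets of Polycomb repression, Trithorax group activation and retinoic acid. Adult liver expresses few HOX genes, and their expression is often altered in tumors.

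Huh-7 is a line of human hepatocellular carcinoma (HCC) cells. Poly(A) RNA was sequenced from WT cells, from cells lacking vtRNA1-1 (1-1 KO) and from cells lacking vtRNA1-2 (1-2 KO), with 3 libraries per line and no treatment. The vault RNAs are short noncoding transcripts of RNA polymerase III, and mRNA libraries do not capture them: VTRNA1-1 had 1 count in 1 WT library and 0 in the other libraries, and VTRNA1-2 had 0 in all 9, so that the labels could not be checked on the deleted genes. WT and 1-1 KO cells had been obtained from another laboratory. The 1-2 KO was a single-cell clone made with CRISPR/Cas9 from the WT cells, and each knockout was 1 line. A difference between lines and an effect of the deletion therefore cannot be told apart. The study calls the libraries of a line biological replicates. The sources did not say whether they came from separate cultures, and the p-values measure the spread between these libraries. Both comparisons against WT used the same 3 WT libraries.

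Total counts per library were between 32384469 and 41782387. HOX members took 0.00628 to 0.00678% of the counts in WT, 0.0121 to 0.0125% in 1-1 KO and 0.00913 to 0.00964% in 1-2 KO. Levels are given as CPM, counts scaled to the TMM-adjusted library size, and per kb of exon (CPM per kb) where genes are compared with each other. A member with at most 3 counts in each library of a line was at the floor in that line, and a fold against a line at the floor was computed against 3 counts per library and is a lower bound. Other folds are ratios of mean CPM, while log2 fold changes are those of the fit and can differ slightly from them. Hepatocyte markers, albumin and alpha-fetoprotein among them, were all 11 tested, with a summed level of 15099 to 16034 CPM in WT, 31271 to 32212 in 1-1 KO and 21289 to 23305 in 1-2 KO. Of these 11, 9 were called higher and 1 lower in 1-1 KO (32.5 and 30.9% of all tested genes). In 1-2 KO, 4 were higher and 3 lower (28.2 and 26.2%), with a median log2 fold change of 0.03. In cultured cells sequenced in bulk, fewer cells that express a gene and less RNA per cell cannot be told apart. The summed level of 10 fibroblast and mesenchymal markers was 191 to 202 CPM in WT, 302 to 317 in 1-1 KO and 122 to 131 in 1-2 KO, and THY1, TWIST1 and TWIST2 were at the floor in all 3 lines. Of the 6 tested, 4 were called higher and 0 lower in 1-1 KO, and 4 higher and 2 lower in 1-2 KO. The lower sum in 1-2 KO therefore did not follow most tested members, whose median log2 fold change there was 0.53. The summed level of 6 kidney lineage markers was 4.27 to 6.34 CPM in WT, 3.46 to 4.14 in 1-1 KO and 11.0 to 13.1 in 1-2 KO. The 6 endothelial markers summed to 7.45 to 8.04, 6.43 to 7.25 and 0.831 to 1.10 CPM, and the 6 blood cell markers to 2.41 to 3.25, 3.72 to 3.92 and 4.17 to 4.84 CPM, in the same order of lines, with KDR and HBB at 0 in every library. Only 1 endothelial marker was tested, not called in 1-1 KO (log2 fold change -0.18) and lower in 1-2 KO (-3.17), and 4 were at the floor in each line. The endothelial sum therefore mostly follows 1 gene. The part of these marker shifts in the HOX values was not tested.

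Both knockouts had higher summed HOX levels compared to WT in each cluster, but by different ratios. The summed level of all 38 members was 66.6 ± 2.72 CPM in WT, 121 ± 1.97 CPM in 1-1 KO and 92.1 ± 1.56 CPM in 1-2 KO (SD, n = 3 libraries each), a ratio to WT of 1.82 and 1.38. The HOXA sum was higher in 1-1 KO than in 1-2 KO, with ratios to WT of 2.49 and 1.21, and HOXC had ratios of 1.5 and 1.30. The HOXB and HOXD sums were near 0 in WT and above it in both knockouts, with HOXD highest in 1-2 KO. Their ratios to WT were larger, at 11.1 and 14.7 for HOXB and 3.88 and 19.6 for HOXD. In the sums of HOXA, HOXC and HOXD the libraries of the 3 lines did not overlap, whereas the HOXB sums overlapped between the knockouts.

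Of the 38 members, 27 passed the filter on low counts and were tested, and the other 11, in HOXB and HOXD, were too low. In 1-1 KO compared to WT, 22 of the 27 were upregulated, where 32.5% of all 17207 tested genes were called higher, and HOXC4 alone was downregulated, where 30.9% were called lower (63.4% in either direction). In 1-2 KO compared to WT, 17 were upregulated, against 28.2% of all tested genes, and HOXA9 and HOXA11 were downregulated, against 26.2% (54.4% in either direction). The median log2 fold change of the tested members was 1.16 and 0.41, respectively, and 0.80 and 0.41 with the members at the floor in WT set to their bounds, while that of all tested genes was 0.01 and 0.02. A member that passed the filter through the knockouts alone had to differ from WT, so these counts describe the tested members and no more. Among the 21 tested members above the floor in WT, 1-1 KO had 17 higher and 1 lower, and 1-2 KO had 11 higher and 2 lower. Being above the floor did not free all of them from the filter. HOXA6, HOXB7 and HOXD13 had fewer than 10 counts in most WT libraries and passed through a knockout, so their calls against WT could hardly be lower. In the direct comparison of the knockouts, 6 of 27 were higher in 1-2 KO, against 33.1% of all tested genes, and 11 were lower, against 32.2% (65.3% in either direction). Of the 6, HOXB6, HOXB13, HOXD4, HOXD8 and HOXD13 passed the filter through 1-2 KO alone, and of the 11, HOXA6 passed through 1-1 KO alone. The direction of these calls was therefore largely set by the filter. Among the members above the floor in WT, 2 were higher in 1-2 KO and 11 lower.

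Sorted by their pair of calls, 15 members rose in both knockouts, 5 (HOXA4, HOXA5, HOXA6, HOXA10 and HOXC5) were called higher in 1-1 KO and missed the threshold in 1-2 KO, and 2 (HOXD1 and HOXD13) did the reverse. HOXA9 and HOXA11 rose in 1-1 KO and fell in 1-2 KO. HOXA2 and HOXC9 were called in neither.

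**Figure D1:**
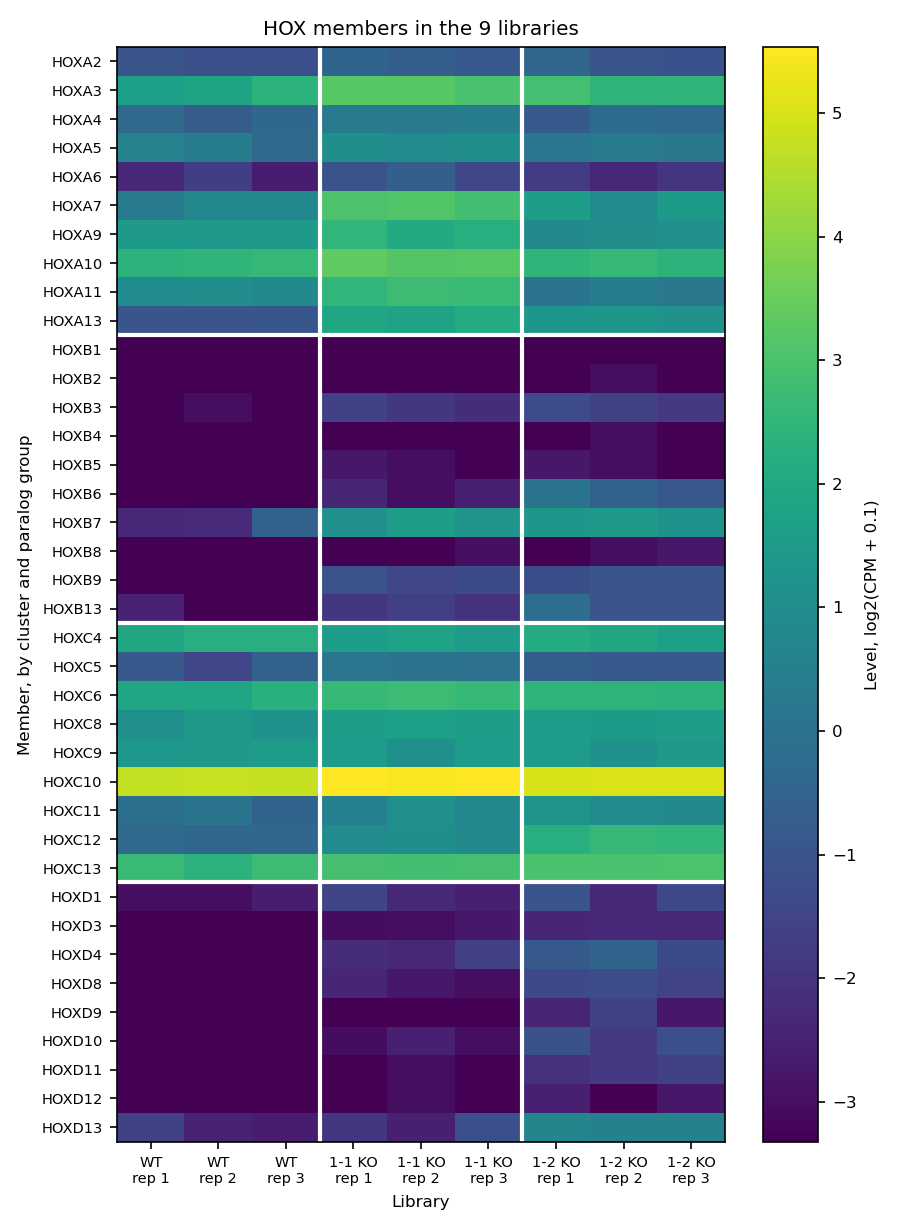
Level of the 38 HOX members (rows, by cluster and paralog group) in the 9 libraries (columns), as log2(CPM + 0.1). HOXA and HOXC were present in all libraries, while in WT 9 of 10 HOXB and 8 of 9 HOXD members were at the floor.

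The promoters of members that moved differently are shown for their letters. RefSeq promoters were found for 20 of the 38 members (GRCh38.p14), and the 250 bases before the RefSeq start were used. Of these windows, 8 ended directly before the start of the gene in GENCODE 44, and the other 12, HOXA9 among them, lay elsewhere, mostly inside the GENCODE gene. HOXC4 and HOXC5 had the same window, so that 19 were distinct. The windows of HOXA9 and HOXA13, of which the first fell and the second rose in 1-2 KO, and of HOXD4 and HOXD13, which rose in 1-2 KO from at or near the floor, are printed 5′ to 3′. They were chosen after the values were seen and because no annotated exon lay in them. Capitals mark every match, on either strand, to TATAAA (the TATA box), CCAAT (the site of NF-Y), GGGCGG (a GC box) and TGATNNAT (a site of PBX with HOX proteins), and overlapping matches run together.

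HOXA9 promoter window, chr7:27165538-27165787, minus strand: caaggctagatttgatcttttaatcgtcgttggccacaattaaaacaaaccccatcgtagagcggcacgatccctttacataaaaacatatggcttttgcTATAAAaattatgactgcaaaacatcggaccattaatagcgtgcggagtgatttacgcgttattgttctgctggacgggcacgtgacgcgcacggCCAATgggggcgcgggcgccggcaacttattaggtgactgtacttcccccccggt
HOXA13 promoter window, chr7:27200092-27200341, minus strand: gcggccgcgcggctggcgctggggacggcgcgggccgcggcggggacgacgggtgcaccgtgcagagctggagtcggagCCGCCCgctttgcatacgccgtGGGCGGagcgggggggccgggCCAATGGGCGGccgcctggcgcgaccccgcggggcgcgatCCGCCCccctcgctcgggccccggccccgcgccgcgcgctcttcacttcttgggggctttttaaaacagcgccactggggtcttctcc
HOXD4 promoter window, chr2:176151300-176151549, plus strand: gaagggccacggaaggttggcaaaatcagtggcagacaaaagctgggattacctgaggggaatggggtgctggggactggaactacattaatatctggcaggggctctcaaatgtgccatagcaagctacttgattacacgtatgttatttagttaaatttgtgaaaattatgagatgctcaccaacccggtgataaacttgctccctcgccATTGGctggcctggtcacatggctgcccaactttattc
HOXD13 promoter window, chr2:176092471-176092720, plus strand: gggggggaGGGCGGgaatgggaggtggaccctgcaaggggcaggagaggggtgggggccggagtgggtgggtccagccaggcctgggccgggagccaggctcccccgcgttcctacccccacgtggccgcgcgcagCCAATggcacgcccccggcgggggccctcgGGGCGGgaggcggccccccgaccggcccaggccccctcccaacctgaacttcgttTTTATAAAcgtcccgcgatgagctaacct

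CCAAT was in 16 of the 19 distinct HOX windows (84.2%) and in 32% of 34943 distinct RefSeq promoter windows of the same length. TATAAA was in 21.1% of the HOX windows and 10.8% of all, GGGCGG in 52.6% and 42.5%, and TGATNNAT in 15.8% and 6.49%. Each of the 4 printed windows held 1 CCAAT. The HOXA9 window had a GC content of 48.8% and 1 TATAAA, whereas the HOXA13 window had 78.0% GC, no TATAAA and 4 GGGCGG matches. In the HOXD13 window, TATAAA was read on both strands at 1 overlapping place. These matches describe letters, and no factor binding was measured.

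The HOXA cluster (chr7:27100354-27200091, GRCh38, all members on the minus strand) was expressed in all 3 lines, and nearly its whole length was upregulated in 1-1 KO. Its summed level was 18 ± 1.16 CPM in WT, 45 ± 1.73 CPM in 1-1 KO and 21.8 ± 1.12 CPM in 1-2 KO (SD, n = 3). In 1-1 KO, 9 of 10 members were upregulated (32.5% of all tested genes), and the median log2 fold change was 1.03. In 1-2 KO, HOXA3, HOXA7 and HOXA13 were upregulated (28.2%), HOXA9 and HOXA11 downregulated (26.2%), and 5 were not called, with a median of 0.11. Compared with each other, the knockouts differed in 9 members, all lower in 1-2 KO (32.2% of all tested genes).

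HOXA13 (ENSG00000106031), the most posterior gene of the cluster and a patterning factor of distal limb, hindgut and urogenital tract, had the steepest rise of HOXA in both knockouts. Its level was 0.402, 0.400 and 0.412 CPM in WT, 3.62, 3.33 and 4.27 CPM in 1-1 KO and 2.42, 2.49 and 2.15 CPM in 1-2 KO. It rose 9.23-fold in 1-1 KO (log2 fold change 3.20 ± 0.169 SE, adjusted p = 1.11e-09) and 5.81-fold in 1-2 KO (2.53 ± 0.179, adjusted p = 2.94e-08). The 3 lines did not overlap, and 1-2 KO stood 1.59-fold below 1-1 KO (adjusted p = 0.000264). HOXA7 (ENSG00000122592), a central gene active in trunk patterning, was at 1.18, 1.63 and 1.62 CPM in WT, 8.25, 8.58 and 7.16 CPM in 1-1 KO and 2.92, 1.88 and 2.74 CPM in 1-2 KO. Its rise was 5.42-fold in 1-1 KO (2.45 ± 0.163, adjusted p = 1.24e-08) and 1.71-fold in 1-2 KO (0.78 ± 0.182, adjusted p = 0.0023), and the lines did not overlap. In HOXA7, 62.5% of the exon bases are shared with the opposite-strand gene HOXA-AS3, which had 0.136, 0.475 and 0.278 CPM as means of the 3 WT, the 3 1-1 KO and the 3 1-2 KO libraries. Whether counting used the strand was not stated, so reads of the pair cannot be told apart.

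HOXA11 (ENSG00000005073), a factor of limb, kidney and uterus development, and HOXA9 (ENSG00000078399), which acts in blood stem cells and leukemia, moved in opposite directions in the knockouts. HOXA11 was at 1.88, 1.92 and 1.81 CPM in WT, 5.62, 6.66 and 6.15 CPM in 1-1 KO and 0.950, 1.21 and 1.07 CPM in 1-2 KO. All 1-1 KO libraries were above WT and all 1-2 KO libraries below. The gene rose 3.29-fold in 1-1 KO (1.71 ± 0.115, adjusted p = 1.34e-08) and fell 1.74-fold in 1-2 KO (-0.80 ± 0.143, adjusted p = 0.000272), and the knockouts differed 5.71-fold (adjusted p = 3.69e-10), the largest gap between them in HOXA. HOXA9 was at 2.69, 2.61 and 2.6 CPM in WT, 5.62, 4.21 and 4.73 CPM in 1-1 KO and 1.80, 1.91 and 2.15 CPM in 1-2 KO. It rose 1.84-fold (0.88 ± 0.124, adjusted p = 2.39e-05) and fell 1.35-fold (-0.43 ± 0.138, adjusted p = 0.0159), respectively. The fall of HOXA9 was lost without 1-2 KO replicate 1 (adjusted p = 0.0591), while that of HOXA11 held without any single library. The antisense gene HOXA11-AS, which covers 27.2% of the HOXA11 exon bases, was at 0.201, 0.187 and 0.222 CPM in WT, 1.02, 1.07 and 1.08 CPM in 1-1 KO and 0.237, 0.201 and 0.324 CPM in 1-2 KO. It rose 5.19-fold in 1-1 KO (adjusted p = 1.32e-06) and was not called in 1-2 KO (log2 fold change 0.32 ± 0.323, adjusted p = 0.497).

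HOXA10 (ENSG00000253293), known from uterus and blood development, had the highest level per length of the cluster in WT, with 1.47 ± 0.0956 CPM per kb. Its CPM were 5.13, 5.44 and 5.83 in WT, 10.2, 8.90 and 9.12 in 1-1 KO and 5.39, 6.0 and 5.14 in 1-2 KO. The rise was 1.72-fold in 1-1 KO (0.78 ± 0.0906, adjusted p = 3.48e-06), and 1-2 KO overlapped WT (0.01 ± 0.0948, adjusted p = 0.911). HOXA3 (ENSG00000105997), a gene of pharyngeal arch patterning, was the only anterior HOX gene at 1 CPM or more. It was at 3.12, 3.47 and 5.20 CPM in WT, 9.19, 9.31 and 7.87 CPM in 1-1 KO and 7.26, 5.42 and 5.44 CPM in 1-2 KO, without overlap between the lines. It rose 2.24-fold (1.18 ± 0.164, adjusted p = 2.22e-05) and 1.54-fold (0.64 ± 0.169, adjusted p = 0.0054).

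HOXA4 (ENSG00000197576) and HOXA5 (ENSG00000106004), of which the latter is needed in lung development, were called higher in 1-1 KO and not in 1-2 KO. HOXA4 was at 0.729, 0.507 and 0.697 CPM in WT, 1.18, 1.14 and 1.20 CPM in 1-1 KO and 0.475, 0.778 and 0.724 CPM in 1-2 KO. Its change was 1.82-fold in 1-1 KO (0.87 ± 0.212, adjusted p = 0.00258) and 0.03 ± 0.234 on the log2 scale in 1-2 KO (adjusted p = 0.93). HOXA5 was at 1.41, 1.25 and 0.729 CPM in WT, 2.03, 1.82 and 2.01 CPM in 1-1 KO and 1.02, 1.16 and 1.07 CPM in 1-2 KO. Its change was 1.73-fold in 1-1 KO (0.77 ± 0.188, adjusted p = 0.0026) and -0.09 ± 0.205 in 1-2 KO (adjusted p = 0.747). For both, the direct comparison placed 1-2 KO below 1-1 KO, by 1.78-fold (adjusted p = 0.00258) and 1.81-fold (adjusted p = 0.00104). HOXA4 shares 31.3% of its exon bases with a same-strand gene, so that its counts are uncertain. HOXA6 had 2 to 8 counts in WT, 11 to 22 in 1-1 KO and 4 to 8 in 1-2 KO and was called higher in 1-1 KO (3.13-fold, log2 fold change 1.59, adjusted p = 0.00614). Without WT replicate 2 its log2 fold change was 2.19. HOXA6 passed the filter through 1-1 KO alone, so that the direction of its calls was largely set by the filter. HOXA6 was also lower in 1-2 KO than in 1-1 KO (2.69-fold, adjusted p = 0.00907), a call that ended without 1-1 KO replicate 2 (adjusted p = 0.0541). HOXA2, the most anterior member, had 11 to 16, 18 to 26 and 15 to 28 counts and was not called in either knockout (adjusted p = 0.127 and 0.284).

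The genes around HOXA moved too. Of the 50 tested genes nearest to the cluster, within 3.96 Mb, 32 were called higher and 1 lower in 1-1 KO (32.5 and 30.9% of all tested genes). Their median log2 fold change was 0.45, whereas the median of all tested genes of chromosome 7 was -0.06. In 1-2 KO, 10 of the 50 were higher and 10 lower (28.2 and 26.2% of all tested genes). The direct flank SKAP2, an adaptor protein gene beyond the anterior end, rose 1.38-fold in 1-1 KO (adjusted p = 1.36e-07) and had a log2 fold change of -0.00 in 1-2 KO (adjusted p = 0.96). With the median of the neighbors subtracted, 7 of 10 HOXA members stayed called higher in 1-1 KO. HOXA4 (adjusted p = 0.112) and HOXA5 (adjusted p = 0.17) lost their calls, and the 9 members lower in 1-2 KO than in 1-1 KO became 4, namely HOXA7, HOXA9, HOXA10 and HOXA11. The copy number of the region was not measured here.

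**Figure D2:**
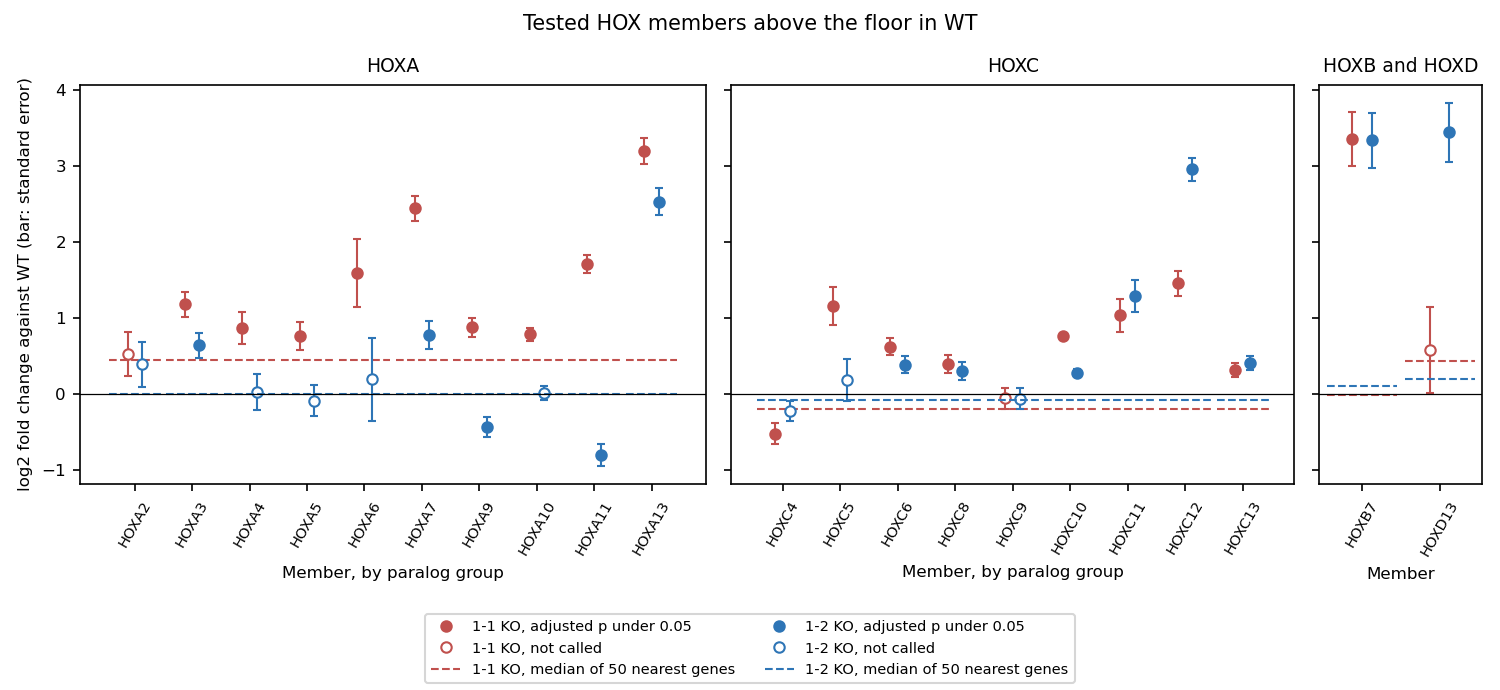
Log2 fold change against WT, with its standard error, of the 21 tested members above the floor in WT, in 1-1 KO (red) and 1-2 KO (blue). Filled points were called, open points were not, and the dashed lines give the median of the 50 nearest genes, which was 0.45 for HOXA in 1-1 KO. HOXA9 and HOXA11 lie above 0 in 1-1 KO and below 0 in 1-2 KO.

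HOXC (chr12:53938831-54056030, plus strand) was the most expressed cluster by summed CPM in each line, and most of its members rose in both knockouts. Its sum was 48.1 ± 1.39 CPM in WT, 72.2 ± 0.858 CPM in 1-1 KO and 62.8 ± 0.468 CPM in 1-2 KO (SD, n = 3). All 9 members were tested, and 7 rose and HOXC4 fell in 1-1 KO (32.5 and 30.9% of all tested genes). In 1-2 KO, 6 rose (28.2%). The median log2 fold changes were 0.63 and 0.31. The 50 nearest genes, in contrast to those of HOXA, had a median of -0.20 in 1-1 KO and -0.07 in 1-2 KO.

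HOXC10 (ENSG00000180818), a gene of lumbar and hindlimb patterning, was the most abundant HOX mRNA per length in each line, with 11.3 ± 0.185 CPM per kb in WT, more than HOXC13, the next in WT, at 2.54 ± 0.339 CPM per kb. Its CPM were 26.5, 27.3 and 26.7 in WT, 46.2, 44 and 46.2 in 1-1 KO and 31.9, 32.6 and 33.3 in 1-2 KO, without overlap between the lines. It rose 1.69-fold in 1-1 KO (0.76 ± 0.0438, adjusted p = 2.72e-09) and 1.22-fold in 1-2 KO (0.28 ± 0.0444, adjusted p = 9.12e-05).

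HOXC12 (ENSG00000123407), a posterior gene close to the 5′ end of the cluster, had the largest rise in HOXC and the reverse order of HOXA, with 1-2 KO highest. Its CPM were 0.729, 0.667 and 0.666 in WT, 1.89, 2.02 and 1.79 in 1-1 KO and 4.61, 5.83 and 5.66 in 1-2 KO. The rise was 2.76-fold in 1-1 KO (1.46 ± 0.164, adjusted p = 2.62e-06) and 7.81-fold in 1-2 KO (2.95 ± 0.146, adjusted p = 6.87e-10), and 1-2 KO exceeded 1-1 KO 2.82-fold (adjusted p = 7.11e-08). HOXC11 (ENSG00000123388), its neighbor and a hindlimb factor, was at 0.854, 0.960 and 0.602 CPM in WT, 1.30, 2.07 and 1.67 CPM in 1-1 KO and 2.30, 1.88 and 1.80 CPM in 1-2 KO. It rose 2.08-fold (1.04 ± 0.217, adjusted p = 0.000783) and 2.48-fold (1.29 ± 0.212, adjusted p = 0.000132), and the knockouts overlapped. HOXC13 (ENSG00000123364), a regulator of hair and nail keratins, was at 6.31, 5.07 and 6.56 CPM in WT, 7.56, 7.20 and 7.50 CPM in 1-1 KO and 7.81, 7.86 and 8.14 CPM in 1-2 KO. The HOXC13 rise was 1.24-fold (0.31 ± 0.0943, adjusted p = 0.00966) and 1.33-fold (0.41 ± 0.0940, adjusted p = 0.00197), and the first was lost without WT replicate 2, the lowest library (adjusted p = 0.0538).

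Of the central HOXC genes, HOXC4 (ENSG00000198353) was the one member that fell in 1-1 KO. It was at 3.74, 4.75 and 4.69 CPM in WT, 3.02, 3.31 and 2.84 CPM in 1-1 KO and 4.25, 3.82 and 3.17 CPM in 1-2 KO. The decrease was 1.44-fold in 1-1 KO (-0.52 ± 0.133, adjusted p = 0.00358), with no overlap, and the change in 1-2 KO was not called (-0.22 ± 0.130, adjusted p = 0.161). Once the median of its neighbors was subtracted, the 1-1 KO call of HOXC4 was lost (-0.32, adjusted p = 0.0517). The difference between the knockouts (0.29 ± 0.133, adjusted p = 0.0679) came under the threshold without WT replicate 1 (adjusted p = 0.0495) or 1-2 KO replicate 3 (adjusted p = 0.0193). HOXC5 shares 67.3% of its exon bases with other genes on the same strand, so that its counts are uncertain. It had 10 to 18 counts in WT, 37 to 43 in 1-1 KO and 18 to 23 in 1-2 KO and was called higher in 1-1 KO (2.21-fold, adjusted p = 0.000891).

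HOXC6 (ENSG00000197757), whose product acts in trunk patterning, was at 3.72, 3.57 and 4.82 CPM in WT, 6.0, 6.57 and 6.01 CPM in 1-1 KO and 5.34, 5.30 and 5.12 CPM in 1-2 KO. It rose 1.53-fold (0.63 ± 0.110, adjusted p = 0.000187) and 1.30-fold (0.39 ± 0.112, adjusted p = 0.00907), and the second call was lost without WT replicate 2 (adjusted p = 0.0506). In the direct comparison, HOXC6 missed the threshold (adjusted p = 0.0622) but passed it without WT replicate 3 (adjusted p = 0.0152). HOXC8 (ENSG00000037965), a thoracic patterning gene, was at 2.06, 2.59 and 2.22 CPM in WT, 3.02, 3.11 and 2.92 CPM in 1-1 KO and 2.80, 2.74 and 2.97 CPM in 1-2 KO. Its rise of 1.32-fold in 1-1 KO (0.40 ± 0.117, adjusted p = 0.00861) was lost with DESeq2 (adjusted p = 0.0725). In 1-2 KO the rise was 1.24-fold (0.31 ± 0.118, adjusted p = 0.0398), and the adjusted p reached 0.158 without WT replicate 1 and was above 0.05 without each other library except WT replicate 2. HOXC9 (ENSG00000180806) did not pass the test in any comparison, with 2.54, 2.69 and 2.79 CPM in WT, 2.84, 2.09 and 2.77 CPM in 1-1 KO and 2.80, 2.18 and 2.70 CPM in 1-2 KO (log2 fold change -0.06 ± 0.143 in each knockout, adjusted p = 0.748 and 0.754).

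**Figure D3:**
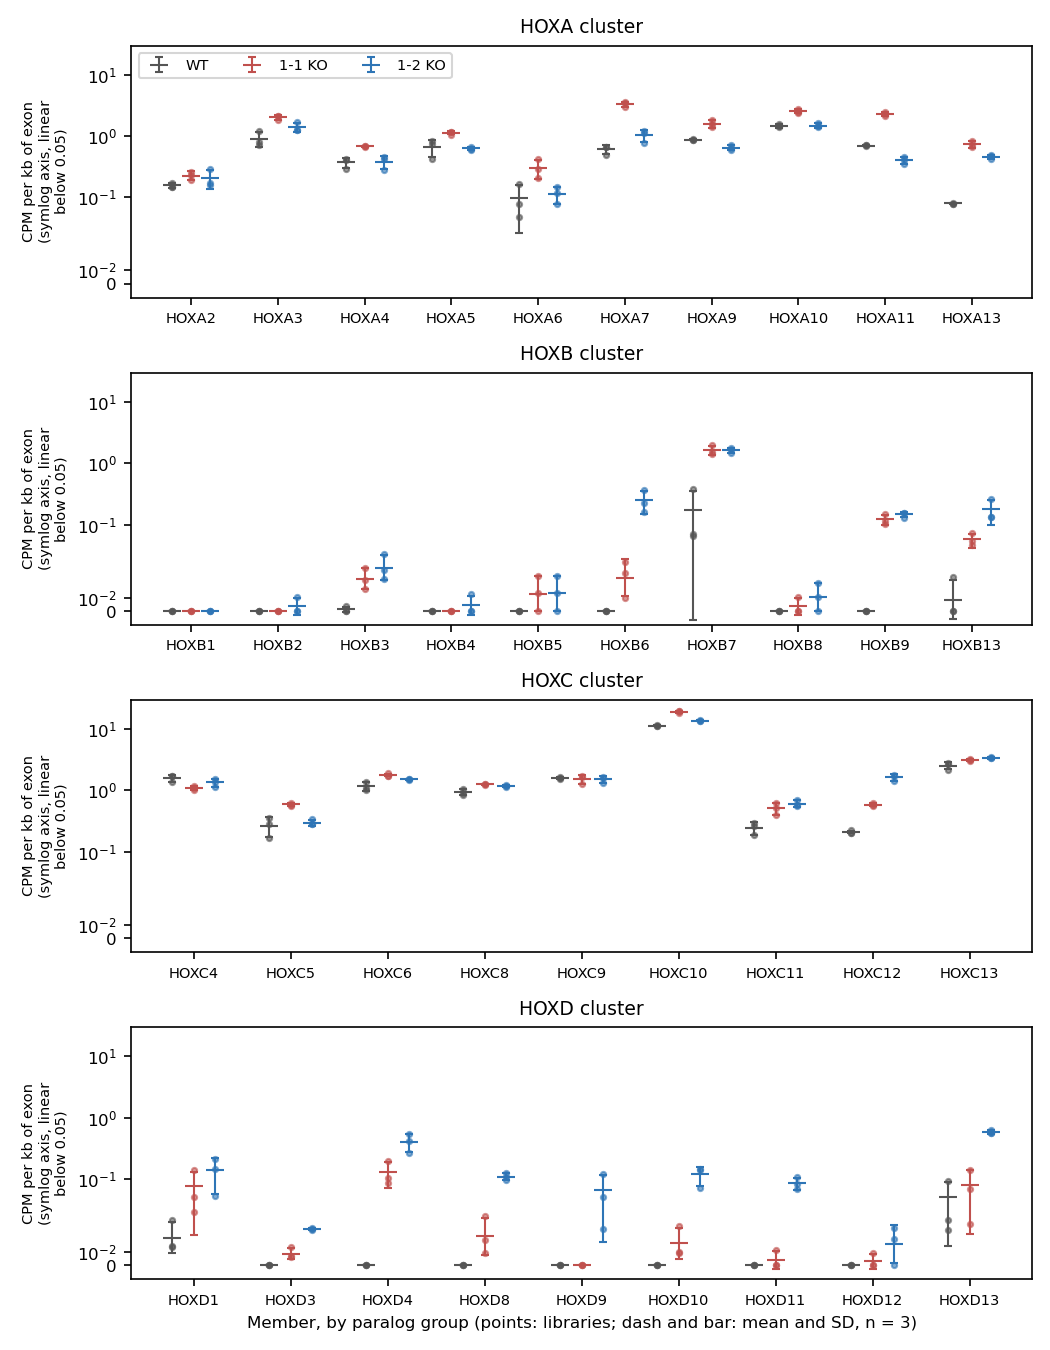
CPM per kb of exon of the members of each cluster, by paralog group, on a symlog axis that is linear below 0.05. Points are libraries, and the dash and bar give mean and SD of WT (grey), 1-1 KO (red) and 1-2 KO (blue, n = 3 each). HOXC10 is the highest member in each line, at 11.3 CPM per kb in WT, and most HOXB and HOXD members lie at 0 in WT.

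HOXB (chr17:48528526-48728750, minus strand) was nearly silent in WT, and HOXB7 was its only member above the floor there. The sum over the cluster was 0.293 ± 0.241 CPM in WT, 3.26 ± 0.400 CPM in 1-1 KO and 4.33 ± 0.636 CPM in 1-2 KO (SD, n = 3), 11.1 and 14.7 times WT, and 21.1 and 28 times without WT replicate 3. The 4 tested members, HOXB6, HOXB7, HOXB9 and HOXB13, rose in both knockouts (32.5 and 28.2% of all tested genes). All but HOXB7 were at the floor in WT and passed the filter through the knockouts, so that their calls against WT could only be higher. HOXB7 reached 10 counts in WT replicate 3 alone and also passed through the knockouts, so that its calls could hardly be lower. HOXB1, HOXB2, HOXB4, HOXB5 and HOXB8, among them the hindbrain genes HOXB1 and HOXB2, were at the floor in all 3 lines. HOXB3 was not tested, and its counts were 0, 1 and 0 in WT, 10, 7 and 5 in 1-1 KO and 13, 9 and 7 in 1-2 KO, at least 2.11- and 2.83-fold higher than WT. The 50 nearest genes had a median log2 fold change of -0.01 in 1-1 KO and 0.11 in 1-2 KO.

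HOXB7 (ENSG00000260027), a gene often raised in carcinoma, made up most of the HOXB sum. Its level was 0.101, 0.107 and 0.571 CPM in WT, 2.15, 3.02 and 2.33 CPM in 1-1 KO and 2.49, 2.66 and 2.22 CPM in 1-2 KO. WT replicate 3 stood apart, with 18 counts against 4 in each of the other WT libraries, but remained below every knockout library. HOXB7 rose 9.64-fold in 1-1 KO (3.36 ± 0.358, adjusted p = 1.55e-06) and 9.48-fold in 1-2 KO (3.34 ± 0.360, adjusted p = 2.34e-06), and the knockouts did not differ beyond their spread (-0.02 ± 0.233, adjusted p = 0.941). Without WT replicate 3 the rises were 24.1- and 23.7-fold (log2 fold changes 4.55 and 4.51).

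HOXB9 (ENSG00000170689), a thoracic patterning gene, had 0 counts in WT, 16, 11 and 12 in 1-1 KO and 14, 16 and 16 in 1-2 KO. It was at least 3.75-fold higher in 1-1 KO (adjusted p = 2.26e-05) and at least 4.52-fold higher in 1-2 KO (adjusted p = 1.47e-05). HOXB6 (ENSG00000108511) had 0 counts in WT, 4, 1 and 3 in 1-1 KO and 40, 23 and 17 in 1-2 KO, so that only 1-2 KO gave clear counts, at least 7.79-fold above WT (adjusted p = 2.17e-05) and 10.1-fold above 1-1 KO (adjusted p = 9.57e-05). Its call in 1-1 KO (adjusted p = 0.0312) rested on at most 4 counts per library and was lost without any one of WT replicates 1, 2 and 3 or 1-1 KO replicates 1 and 3, with an adjusted p of up to 0.0796. HOXB13 (ENSG00000159184), a prostate lineage factor that stands apart at the posterior end, had 3, 0 and 0 counts in WT, 7, 9 and 6 in 1-1 KO and 34, 16 and 16 in 1-2 KO. HOXB13 was at least 2.12-fold higher in 1-1 KO (adjusted p = 0.017) and at least 6.42-fold higher in 1-2 KO (adjusted p = 0.000116), and 1-2 KO was 3.03-fold above 1-1 KO (adjusted p = 0.00557). The 1-1 KO call was lost without WT replicate 2 (adjusted p = 0.0666), WT replicate 3 (adjusted p = 0.0524) or 1-1 KO replicate 2 (adjusted p = 0.0502).

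HOXD (chr2:176092721-176190907, plus strand) was at the floor in WT in 8 of 9 members and in 1-1 KO in 5, but in 1-2 KO in HOXD12 alone. Its sum was 0.162 ± 0.0783 CPM in WT, 0.628 ± 0.146 CPM in 1-1 KO and 3.17 ± 0.264 CPM in 1-2 KO (SD, n = 3). Of 4 tested members, HOXD4 and HOXD8 rose in 1-1 KO and all 4 in 1-2 KO (32.5 and 28.2% of all tested genes). HOXD1, HOXD4 and HOXD8 were at the floor in WT and passed the filter through the knockouts, so that their calls against WT could only be higher. HOXD4, HOXD8 and HOXD13 were higher in 1-2 KO than in 1-1 KO (33.1% of all tested genes). They passed the filter through 1-2 KO alone, so that these calls could hardly be lower.

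HOXD13 (ENSG00000128714), the digit patterning gene at the posterior end, had the highest level per kb of HOXD in WT and 1-2 KO, with 0.0510 and 0.589 CPM per kb. In 1-1 KO, HOXD4 was at 0.128 ± 0.0581 CPM per kb and HOXD13 at 0.0802 ± 0.0568 CPM per kb, within their spread. Its counts were 9, 3 and 2 in WT, 7, 3 and 14 in 1-1 KO and 65, 54 and 55 in 1-2 KO, or 0.226, 0.0800 and 0.0634 CPM, 0.165, 0.0729 and 0.343 CPM, and 1.54, 1.36 and 1.37 CPM. It rose 11.6-fold in 1-2 KO (3.44 ± 0.392, adjusted p = 4e-06) and was 7.35-fold above 1-1 KO (2.86 ± 0.348, adjusted p = 5.18e-06). In 1-1 KO the libraries overlapped WT (0.58 ± 0.568, adjusted p = 0.391), and without 1-1 KO replicate 3 the log2 fold change was -0.10. Leaving out 1 library also moved the called differences of HOXD13, to a log2 fold change of 4.24 in 1-2 KO compared to WT without WT replicate 1, and to 3.54 in 1-2 KO compared to 1-1 KO without 1-1 KO replicate 3.

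Of the other HOXD genes, 3 were tested. HOXD4 (ENSG00000170166), a hindbrain and vertebral patterning gene, had 0 counts in WT, 5, 4 and 9 in 1-1 KO and 20, 24 and 12 in 1-2 KO. HOXD4 was at least 1.74-fold higher in 1-1 KO (adjusted p = 0.00208) and at least 5.5-fold higher in 1-2 KO (adjusted p = 4.12e-05), and 1-2 KO was 3.16-fold above 1-1 KO (adjusted p = 0.00416). HOXD8 (ENSG00000175879) had 0 counts in WT, 4, 2 and 1 in 1-1 KO and 12, 13 and 10 in 1-2 KO. It was at least 3.44-fold higher in 1-2 KO (adjusted p = 0.000105) and 5.13-fold above 1-1 KO (adjusted p = 0.00166), and its call in 1-1 KO (adjusted p = 0.0175) was lost without 1-1 KO replicate 1 (adjusted p = 0.0595).

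HOXD1 (ENSG00000128645) had 1, 1 and 2 counts in WT, 11, 4 and 3 in 1-1 KO and 17, 4 and 11 in 1-2 KO. It was at least 3.11-fold higher in 1-2 KO (adjusted p = 0.00727) and just missed the threshold in 1-1 KO (adjusted p = 0.0685), which it passed without 1-1 KO replicate 3 (adjusted p = 0.0459), 1-2 KO replicate 1 (adjusted p = 0.0493) or 1-2 KO replicate 2 (adjusted p = 0.0432). The HOXD1 difference between the knockouts (adjusted p = 0.189) passed without 1-1 KO replicate 1 (adjusted p = 0.0487) or 1-2 KO replicate 2 (adjusted p = 0.0494). The 5 members that were not tested had 0 counts in every WT library. HOXD10, a lumbar patterning gene, had 1, 3 and 1 counts in 1-1 KO and 15, 7 and 14 in 1-2 KO, at least 3.52-fold above WT. HOXD11, its neighbor, had 0, 1 and 0 and then 6, 7 and 9 counts. HOXD9 had 0 counts in 1-1 KO and 4, 9 and 2 in 1-2 KO, HOXD3 had 1, 1 and 2 and then 4, 4 and 4, and HOXD12 had 0, 1 and 0 and then 3, 0 and 2. HOXD10 and HOXD11 share 18.2 and 21.4% of their exon bases with each other.

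As around HOXA, the genes nearest to HOXD moved in 1-1 KO. Of 50 within 3.67 Mb, 34 were higher and 3 lower (32.5 and 30.9% of all tested genes). Their median log2 fold change was 0.43, while the median of chromosome 2 was 0.13. In 1-2 KO, where HOXD was highest, 17 were higher and 8 lower (28.2 and 26.2%), with a median of 0.20. LNPK, an endoplasmic reticulum gene next to HOXD, rose 1.47-fold in 1-1 KO (adjusted p = 1.78e-07) and 1.17-fold in 1-2 KO (adjusted p = 0.00119), and MTX2, a mitochondrial import gene on the other side, rose 1.34-fold in 1-1 KO (adjusted p = 4e-06). With the median of the neighbors subtracted, all HOXB and HOXD calls against WT were kept.

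**Figure D4:**
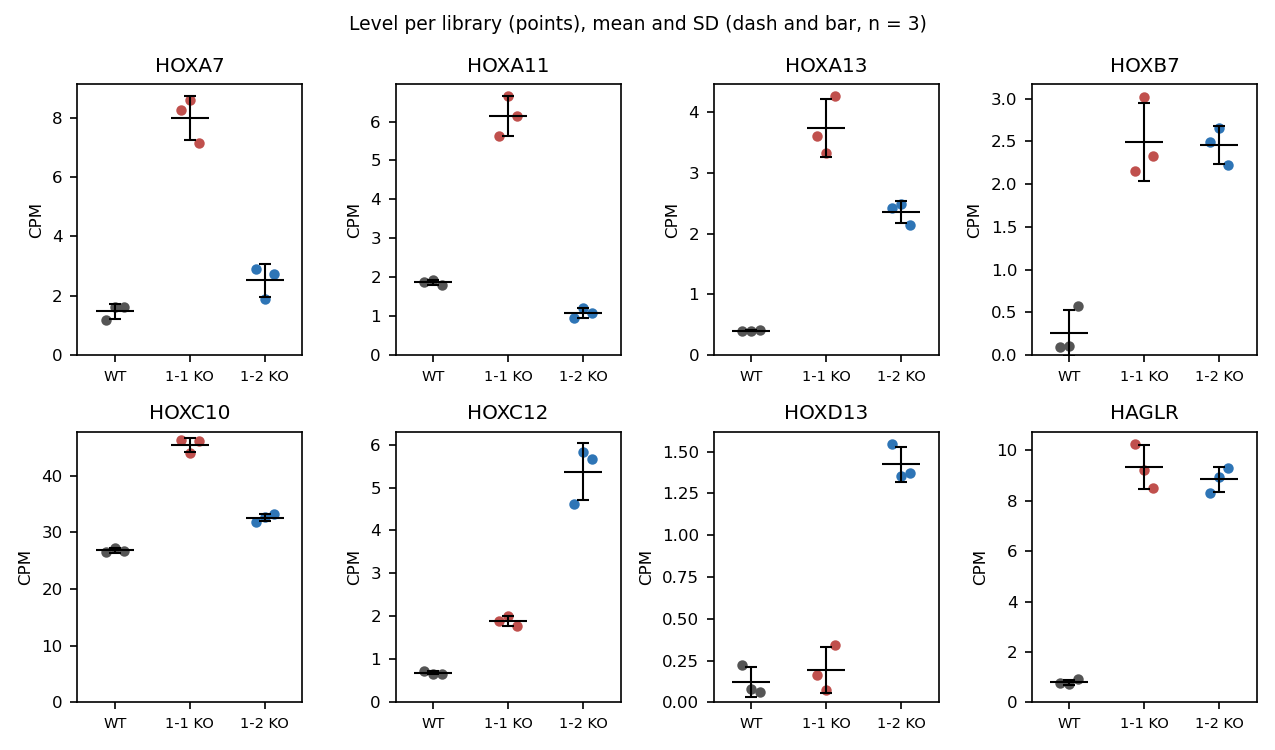
CPM in each library (points), with mean and SD (n = 3), of 7 HOX members and the antisense RNA HAGLR, on linear axes that start at 0. HOXA11 is highest in 1-1 KO and lowest in 1-2 KO, HOXC12 and HOXD13 are highest in 1-2 KO, and WT replicate 3 of HOXB7, at 0.571 CPM, lies apart from the other WT libraries.

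By position across the clusters, the 7 anterior members (paralog groups 1 to 3) summed to 4.34 ± 1.11 CPM in WT, 9.67 ± 0.973 in 1-1 KO and 7.13 ± 1.40 in 1-2 KO, of which HOXA3 was the greater part. The 15 central members (4 to 8) summed to 14.8 ± 1.25, 27.5 ± 1.61 and 20.6 ± 1.09 CPM, and the 16 posterior members (9 to 13) to 47.5 ± 0.473, 83.9 ± 2.41 and 64.3 ± 0.864 CPM (SD, n = 3). In 1-1 KO, 1 of 3 tested anterior, 11 of 12 central and 10 of 12 posterior members rose (32.5% of all tested genes). In 1-2 KO, 2, 7 and 8 rose (28.2%), and both members that fell were posterior (26.2%). The counts include HOXD1 (anterior), HOXB6, HOXD4 and HOXD8 (central) and HOXB9 and HOXB13 (posterior). These members were at the floor in WT and passed the filter through the knockouts, so their calls against WT could only be higher. HOXA6 and HOXB7 (central) and HOXD13 (posterior) were above the floor in WT but also passed through a knockout, so theirs could hardly be lower. The ratio of the summed level to WT was 2.23, 1.86 and 1.77 in 1-1 KO and 1.64, 1.40 and 1.35 in 1-2 KO, from anterior to posterior. HOXC10 was the greater part of the posterior sum (mean 26.8 CPM in WT, 45.4 in 1-1 KO, 32.6 in 1-2 KO). Its own ratios to WT, 1.69 and 1.22, were below those of the posterior sum and lowered them. The posterior ratios thus weigh HOXC10 most, and whether the order of the summed ratios holds without it was not tested. No test was made over positions.

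Noncoding RNAs transcribed within the clusters were mostly upregulated in 1-1 KO. Of 18 listed, 11 were tested, and 9 were upregulated in 1-1 KO (32.5% of all tested genes) and 5 in 1-2 KO (28.2%), with none downregulated. HOXA-AS3, HOXA11-AS, HOXC-AS3, HOXC13-AS and HOXD-AS2 had fewer than 10 counts in every WT library and passed the filter through a knockout. Their calls against WT could therefore hardly be lower. HAGLR (ENSG00000224189, chr2:176164051-176188958, minus strand), an antisense RNA that overlaps the HOXD1 start and runs into HOXD3, had the smallest adjusted p in both knockouts, at 0.779, 0.720 and 0.919 CPM in WT, 10.3, 9.22 and 8.51 CPM in 1-1 KO and 8.31, 8.94 and 9.28 CPM in 1-2 KO. It rose 11.6-fold (3.54 ± 0.125, adjusted p = 1.97e-11) and 11.0-fold (3.46 ± 0.126, adjusted p = 2.97e-11). The HAGLR difference between the knockouts was not called (-0.08 ± 0.0885, adjusted p = 0.462), while the HOXD sum was 0.628 CPM in 1-1 KO and 3.17 CPM in 1-2 KO. HAGLR and another opposite-strand gene together cover 60.1% of the HOXD1 exon bases. HAGLR ends at position 176188958, shortly after the HOXD1 start at 176188668, so the other gene covers most of this share. Without a stated strand setting, the HOXD1 counts may hold reads of either gene. HOTAIR, the HOXC antisense RNA known for its ties to Polycomb, rose 2.14-fold in 1-1 KO (1.09 ± 0.133, adjusted p = 5.83e-06) and 1.95-fold in 1-2 KO (0.96 ± 0.135, adjusted p = 3.23e-05). Of exon overlap in general, 16 members share exon bases with a same-strand gene, 19 with an opposite-strand gene and 14 with neither. Besides HOXA4, HOXC5, HOXD10 and HOXD11, HOXC4 shares 17.5% of its exon bases with same-strand genes, HOXC6 16.1%, HOXA9 15.9% and HOXB6 16.6%, and how such reads were assigned was not stated.

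The TALE homeodomain cofactors, which bind DNA together with HOX proteins, moved in both directions. Of 9 listed, 7 were tested, and 5 rose and 1 fell in 1-1 KO (32.5 and 30.9% of all tested genes), while in 1-2 KO 4 were higher and 1 lower (28.2 and 26.2%). MEIS3 had the largest ratio, from 0.0830 CPM in WT to 0.613 in 1-1 KO and 0.450 in 1-2 KO (7.39-fold, adjusted p = 1.44e-05, and 5.42-fold, adjusted p = 0.000162). It passed the filter through the knockouts alone, so that its calls against WT could hardly be lower. MEIS2 rose from 25.3 to 33.4 and 52.9 CPM (1.32-fold, adjusted p = 4.15e-06, and 2.10-fold, adjusted p = 1.98e-10), and MEIS1 rose in 1-1 KO (1.48-fold, adjusted p = 7.78e-06) with a log2 fold change of 0.01 in 1-2 KO (adjusted p = 0.959). PBX2 rose by at most 1.25-fold in either knockout, PBX3 was not called, and PKNOX1 fell in both, by 1.12-fold (adjusted p = 0.0237) and 1.14-fold (adjusted p = 0.0111).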

How the data were processed

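The 9 libraries, 3 each of WT, the 1-1 KO line and the 1-2 KO line, were made with a stranded poly(A) kit. Reads had been mapped with STAR (hg38, annotation version 104) and counted with featureCounts by the authors, and the deposited values are raw read counts per gene (tool versions, strand setting and treatment of overlaps not given in the sources used here). Of 60664 gene identifiers, 60463 had a symbol and position in GENCODE 44, and the other 201 held 0.0192% of the counts. Library totals ran from 32384469 to 41782387.

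Genes were filtered with filterByExpr (minimum count 10, minimum total 15), which left 17207, and counts were scaled by TMM. The 3 lines were compared with edgeR's quasi-likelihood test, 1 fit over the 9 libraries with a term per line, and p-values were adjusted after Benjamini-Hochberg over all tested genes (threshold 0.05). SE is the log2 fold change divided by the square root of F. CPM per kb used the union of the exons in GENCODE 44. Values in every library are given for members whose mean reached 1 CPM in any line, other members by counts, and of other lists the 2 genes with the smallest adjusted p in each knockout, all genes of lists with at most 10 tested, and flanking genes; 2 of these other genes are not reported here. HOXA-AS3, HOXC-AS3, HOXC13-AS, HOXD-AS2 and the low members given by counts are named in addition, chosen after their values were seen. The members, lists and position groups were chosen with earlier results of these data known. Promoters were from RefSeq (GRCh38.p14). Scripts were tested on simulated counts. R 4.3.3, edgeR 4.0.16, DESeq2 1.42.0, limma 3.58.1, Python 3.11.15, pandas 2.3.3, numpy 2.4.6 and matplotlib 3.10.9 were used. Alternatives were DESeq2, other scalings and filters, a threshold of 0.01, only the lines compared, a replicate block, each library left out, and subtraction of the median of the 50 nearest genes.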

Additional observations from a re-analysis of the deposited data

How the results depend on the processing

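With subtraction of the median of the 50 nearest genes, members called lower went from 1 to 0 in 1-1 KO compared to WT and from 11 to 7 in 1-2 KO compared to 1-1 KO. With at least 10 counts required in every library, members called higher went from 17 to 9 in 1-2 KO compared to WT and from 6 to 1 between the knockouts, since fewer members were tested. At a threshold of 0.01, 1 member was lower in 1-2 KO. Without 1-2 KO replicate 1, members lower in 1-2 KO compared to WT also went from 2 to 1. The other counts of members stayed within 1.5 times under every alternative run. Leaving out 1 library each gave 19 to 24 members higher and 1 lower in 1-1 KO, 16 to 17 and 1 to 2 in 1-2 KO, and 6 to 8 and 10 to 12 between the knockouts. DESeq2 called 22 higher and 1 lower, 19 and 2, and 9 and 10.

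Of 59 calls of single members, 43 kept direction and threshold under every alternative run. No called member changed sign. Among those not called, the neighbor subtraction gave HOXC9 a log2 fold change of 0.14 in 1-1 KO and 0.014 in 1-2 KO, and, between the knockouts, HOXA2 0.31 and HOXC13 -0.049. Between the knockouts HOXC9 was at 0.0012 with DESeq2, 0.00051 with DESeq2 size factors and 0.0030 with library size alone. With 1 library left out, HOXC9 ranged from -0.13 to 0.071 in 1-1 KO, -0.13 to 0.043 in 1-2 KO and -0.13 to 0.10 between the knockouts, and HOXD13 from -0.10 to 1.38 in 1-1 KO. In 1-2 KO, HOXA4 ranged from -0.12 to 0.22, HOXA5 from -0.32 to 0.10, HOXA6 from -0.094 to 0.79, HOXA10 from -0.050 to 0.063 and HOXC5 from -0.067 to 0.40. Between the knockouts, HOXA2 ranged from -0.45 to 0.015 and HOXB7 from -0.12 to 0.13. The causes were not tested.

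Libraries share only a number: correlations of their deviations over genes were -0.30 to 0.13 for 9 pairs of the same number and -0.27 to 0.39 for 18 pairs of other numbers. With the replicate number as a block, 23 members were higher and 1 lower in 1-1 KO, 16 and 2 in 1-2 KO, and 6 and 11 between the knockouts, with HOXD1 gained in 1-1 KO (adjusted p = 0.0378) and HOXC8 lost in 1-2 KO (adjusted p = 0.0565).

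Replicates of each line differed by more than counting noise (chi-square per degree of freedom 2.04 to 15.6). Depth limits HOXB and HOXD: at a floor of 3 counts per library, levels below 0.0709 to 0.0951 CPM were not resolved, so that members at 0 in WT were not detectable at this depth. Floors cover counting error only.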

Other observations

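Of all tested genes, 32.5% were called higher and 30.9% lower in 1-1 KO compared to WT, and 28.2% and 26.2% in 1-2 KO, and the counts of each list stand beside these shares. Other homeobox genes of the HOX type were mostly undetected. Of 13 listed, 4 were tested and all 4 were upregulated in both knockouts. MEOX2, 1 of the 4, passed the filter through the knockouts alone, so that its calls could only be higher. CDX2, an intestinal factor that acts upstream of HOX genes in the embryo, was at 1.86, 1.76 and 2.44 CPM in WT, 19.0, 20.3 and 19.0 CPM in 1-1 KO and 19.4, 16.4 and 17.0 CPM in 1-2 KO (9.62-fold, adjusted p = 1.02e-11, and 8.71-fold, adjusted p = 1.93e-11). PDX1, a pancreas and duodenum factor, rose 9.25-fold (adjusted p = 4.15e-06) and 13.1-fold (adjusted p = 6.83e-07), and MNX1, a motor neuron and pancreas factor, 1.87-fold (adjusted p = 0.000365) and 2.53-fold (adjusted p = 9.43e-06). MEOX2 was at the floor in WT, at least 12.6-fold higher in 1-1 KO (adjusted p = 9.75e-07) and at least 1.47-fold higher in 1-2 KO (adjusted p = 0.029). The other 9 were at the floor in all 3 lines.

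Of 14 tested genes of retinoic acid signaling, a HOX regulator in the embryo, 11 were higher and none lower in 1-1 KO (32.5 and 30.9% of all tested genes), while in 1-2 KO 6 were higher and 4 lower (28.2 and 26.2%). STRA6, the retinol uptake receptor, went from 0.130 CPM in WT to 0.460 in 1-1 KO (3.53-fold, adjusted p = 0.00241) and 13.4 in 1-2 KO (103-fold, adjusted p = 4.26e-11). ALDH1A1, which makes retinoic acid, rose 1.69-fold in 1-1 KO (adjusted p = 9.9e-10) and fell 1.14-fold in 1-2 KO (adjusted p = 0.00095), and RDH10, which makes retinal, rose 1.91-fold in 1-1 KO (adjusted p = 2.22e-09) and was not called in 1-2 KO (log2 fold change -0.03, adjusted p = 0.669). Polycomb genes moved both ways: of 30 tested, 1-1 KO had 10 higher and 8 lower, shares near those of all tested genes, and 1-2 KO had 12 higher and 9 lower. EZH2, the H3K27 methyltransferase, fell 1.48-fold in 1-1 KO (adjusted p = 2.89e-09) and rose 1.16-fold in 1-2 KO (adjusted p = 4.62e-05). JARID2, a PRC2 partner, rose 1.75-fold in 1-1 KO (adjusted p = 1.85e-08) and fell 1.21-fold in 1-2 KO (adjusted p = 0.00105). CBX2 and PCGF2, subunits of PRC1, rose 1.37- and 1.88-fold in 1-1 KO (adjusted p = 6.47e-07 and 2.26e-06) and 1.75- and 2.40-fold in 1-2 KO (adjusted p = 2.38e-09 and 9.35e-08). Among 17 Trithorax, MLL complex and demethylase genes, 1-1 KO had 6 higher and 5 lower, and 1-2 KO had 9 higher and 4 lower. KDM6A, an H3K27 demethylase, fell 1.59-fold in 1-1 KO (adjusted p = 2.88e-09) and rose 1.5-fold in 1-2 KO (adjusted p = 1.19e-08). MLLT1, of the super elongation complex, rose 1.44-fold (adjusted p = 2.01e-05) and 1.18-fold (adjusted p = 0.014), and AFF1, its scaffold, fell 1.14-fold (adjusted p = 0.000181) and 1.39-fold (adjusted p = 2.06e-08). Whether any of these changes bears on the HOX members was not tested.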
